A study of Mus musculus with 18 samples.

Results

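The 2 ends of splenic NK cell maturation were compared in wild-type (WT) mice. The comparison set 3 libraries of stage IV cells, which carried CD11b and lacked CD27 on their surface, against 3 libraries of stage II cells, which carried CD27 and lacked CD11b. These 6 of 18 libraries were found by their labels. RNA was sequenced from NK cells sorted out of pooled spleens of C57BL/6 mice, 8 to 12 weeks old. The other 12 libraries were 3 of WT stage III, which carried both surface proteins, and 9 of KO cells at stages II, III and IV. KO cells came from Ncr1-iCreERT2 KI/WT x Rosa26YFPLSL x Eomes fl/fl mice given tamoxifen for 3 days, in which a drug-activated Cre under control of the NK cell gene Ncr1 deletes the transcription factor gene Eomes. The label of the WT mice names no further genotype. The tamoxifen protocol is listed for every sample, and whether the WT mice received the drug or carried the Cre is not clear from it. The labels speak of 3 separate experiments. They state neither the number of spleens in a pool nor which experiment a replicate number stands for. P-values therefore measure the spread between these libraries, part of which may be technical.

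NK cells are lymphocytes that kill infected or transformed cells without prior sensitisation, by releasing granules of perforin and granzymes, and that secrete cytokines such as interferon-gamma. In the mouse they gain CD11b and then lose CD27 as they mature. Cells at the early end divide more readily and sit closer to lymphoid tissue, whereas those at the late end are long-lived, circulate in blood and hold more preformed killing machinery. The transcription factors T-bet, Eomes, Zeb2 and Blimp-1 act in this sequence, and TCF-1 marks its beginning. Group 1 innate lymphoid cells (ILC1) share Ncr1 and NK1.1 with NK cells, and a spleen sort for early NK cells can hold some of them.

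The 6 libraries held between 19409764 and 24641981 counts. Levels are given below as CPM, each gene's count scaled to the total of its library, always in the order of replicates 1, 2 and 3. Fold changes are on the log2 scale, stage IV over stage II, with 3 libraries in each stage. Their standard error (SE) comes from a fit of all 18 libraries in 6 groups of 3, so the spread within the KO and stage III groups enters it, and adjusted p-values come from edgeR's quasi-likelihood test with Benjamini-Hochberg adjustment unless another tool is named. The sorted surface proteins could be followed in the RNA. Itgam, which encodes CD11b, stood at 61, 50.9 and 41.6 CPM in stage II and 847, 680.4 and 501 in stage IV, and Cd27 stood at 421, 454 and 428 and 52.1, 72.4 and 81.9. The NK receptor gene Ncr1 lay between 2376 and 3796 CPM in stage II and between 2126 and 4076 in stage IV and did not pass the test. Stage II replicate 1 stood apart from the other 5 libraries. It detected 29859 genes against 17906 to 18822, and 0.618% of its counts fell on genes too rare to be tested, against at most 0.0544% in the others. Replicate 1 of both stages also held the female transcript Xist at 45.2 and 43.2 CPM, against at most 0.636 in replicates 2 and 3, and both had the lowest sums of 24 immediate early genes (4873 and 4456 CPM against 11170 to 15460). Same-numbered libraries of the 2 stages thus shared features, and fits of the 9 WT libraries with the replicate number as a term (replicate block) are given where they end a call or move a count by over 1.5 times.

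More genes were lower at the late end than higher, and the falls were larger. Of 14156 genes tested, 745 (5.26%) were higher in stage IV and 1390 (9.82%) were lower, at an adjusted p under 0.05, so that 15.1% were called in all. At least a 2-fold change was fitted for 262 of the genes that rose and 888 of those that fell. At least 8-fold was fitted for 22 and 371. The median log2 fold change was 0.81 among genes that rose, -1.42 among genes that fell and -0.02 over all genes tested. The 745 genes that rose took 9.64 to 9.82% of all counts in the stage II libraries and 16.7 to 18.6% in those of stage IV. The 1390 that fell took 13.6 to 13.8% and 6.59 to 6.91%.

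The sizes of the largest falls rest in part on few counts. Of the genes called lower, 36 had no count in the 3 stage IV libraries and 76 had 1 to 3 counts, while no gene called higher had 3 or fewer counts in stage II. Among the 371 genes that fell at least 8-fold, 50 had a mean below 1 CPM in stage II and 99 had at least 10. The number of calls depended on the model. With the replicate number as a term in the 9 WT libraries, 3009 of 13062 genes (23.0%) were higher and 3066 (23.5%) lower, and all 2081 of the main calls tested there were called in the same direction. Scaling by library totals alone gave 502 higher and 1570 lower, so that 24.2% of calls were higher against 34.9% with edgeR's composition factors. Leaving out stage II replicate 2, or any one of stage IV replicates 1, 2 and 3, left between 1289 and 1309 calls. Without stage II replicate 1 or 3 the counts were 1738 and 1432, and 1030 of the 2135 calls were made in each of these 6 fits. Without regard to any test, the 3 stage IV libraries all lay above the 3 of stage II in CPM for 14.8% of tested genes and all below for 27.1%.

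**Figure D1:**
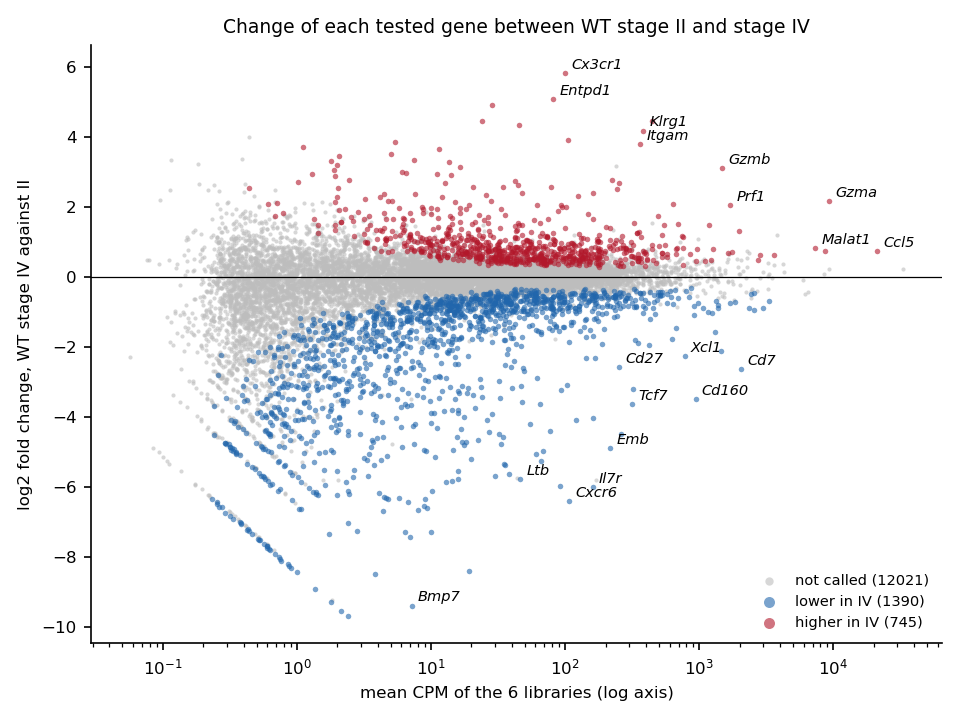
Log2 fold change of stage IV over stage II in WT cells (vertical axis) against the mean CPM of the 6 libraries (horizontal axis, log scale), for the 14156 genes tested, with one point per gene and called genes in colour. The 1390 genes called lower reach farther from 0 than the 745 called higher, and the most extreme falls lie at low levels.

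Known markers of mature NK cells rose together. Their list was drawn up from genes known for the late end, with earlier results of these data known. Its direction is therefore not independent support. All 14 genes on a list of mature NK markers were called higher, with a median log2 fold change of 2.04 against -0.02 over all genes. The CPM of the 14 summed to 23960, 22350 and 22700 in stage II and 58020, 47620 and 45180 in stage IV. In each of the 6 fits with a library left out, 13 of the 14 were called. Gzma encodes granzyme A, a protease of the killing granule (ENSMUSG00000023132, chr13:113093825-113100979 on GRCm38). It stood at 3484, 3635 and 3454 CPM in stage II, 11260, 8637 and 8187 in stage III and 16970, 14640 and 13680 in stage IV. No stage II library came within reach of a stage IV library, and the log2 fold change was 2.17 ± 0.25 (adjusted p = 1.12e-05). Gzmb, the granzyme that cleaves caspases in the target cell, stood at 262, 335 and 367 CPM and then at 1969, 3072 and 2871, a log2 fold change of 3.12 ± 0.27 (adjusted p = 5.34e-07). Prf1 encodes the pore protein perforin. It varied little among replicates, at 675, 698 and 686 CPM in stage II against 2748, 2843 and 2568 in stage IV (log2 fold change 2.07 ± 0.20, adjusted p = 1.54e-06). The mast cell chymase gene Cma1 went from 46.6, 36.7 and 38.7 CPM to 1061, 770.3 and 724 (log2 fold change 4.47 ± 0.42).

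Not every granule gene followed this direction. Of 6 granzyme and chymase genes tested, 3 were higher (Gzma, Gzmb, Cma1) and 2 lower. Gzmm, encoding granzyme M, stood at 70, 76.9 and 69.6 CPM in stage II and 5.42, 8.4 and 9.11 in stage IV, with every stage IV library below every stage II library (log2 fold change -3.16 ± 0.26, adjusted p = 2.4e-07). Gzmc, encoding granzyme C, stood at 7.62, 11.8 and 6.61 and 1.4, 3.29 and 2.45 CPM (log2 fold change -1.78 ± 0.38, adjusted p = 0.00357). Among 19 genes of perforin action and granule release, 7 were higher and 2 lower, against 9 and 5 with the replicate block. One of the 2 falls, that of Srgn, was called in no fit with a library left out other than that without stage II replicate 1. The protease inhibitors Serpinb9 and Serpinb9b, the first of which shields the killer cell from its own granzyme B, had log2 fold changes of 0.93 ± 0.17 and 2.79 ± 0.28. Stx11, a syntaxin needed for granule fusion, and Ctsc, the protease that activates granzymes, had changes of 1.0 ± 0.13 and 0.67 ± 0.13. Lyst, the lysosomal trafficking regulator lost in beige mice, fell from 60.6, 45 and 50.7 CPM to 20.2, 14.5 and 17.5 (log2 fold change -1.50 ± 0.18, adjusted p = 2.35e-05).

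In absolute CPM the 10 largest gains included the granule protein gene Nkg7, the long noncoding RNAs Malat1 and AW112010, the chemokine gene Ccl3, and Ctsd and Lgals1. Ccl5, a chemokine stored in NK cells, was at 17140, 15340 and 16130 CPM in stage II and 30730, 23530 and 23480 in stage IV (log2 fold change 0.76 ± 0.24, adjusted p = 0.0407). Its 3 stage IV libraries lay above the 3 of stage II, but the call was lost without any one of the 6 libraries (adjusted p up to 0.146). The calls of Nkg7 were lost in the same 6 fits (up to 0.0999). Malat1 was called in 1 of the 6 fits, that without stage II replicate 3, and AW112010 in that without stage IV replicate 3. With the replicate block in the 9 WT libraries all 4 were called. Lgals1, encoding galectin-1, was at 505, 735 and 684 CPM and then 1651, 1882 and 1603 (log2 fold change 1.49 ± 0.23), and Ctsd, encoding the lysosomal protease cathepsin D, at 2389, 2260 and 2179 and 3686, 3417 and 2999 (0.65 ± 0.11). Both were called in all 6.

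**Figure D2:**
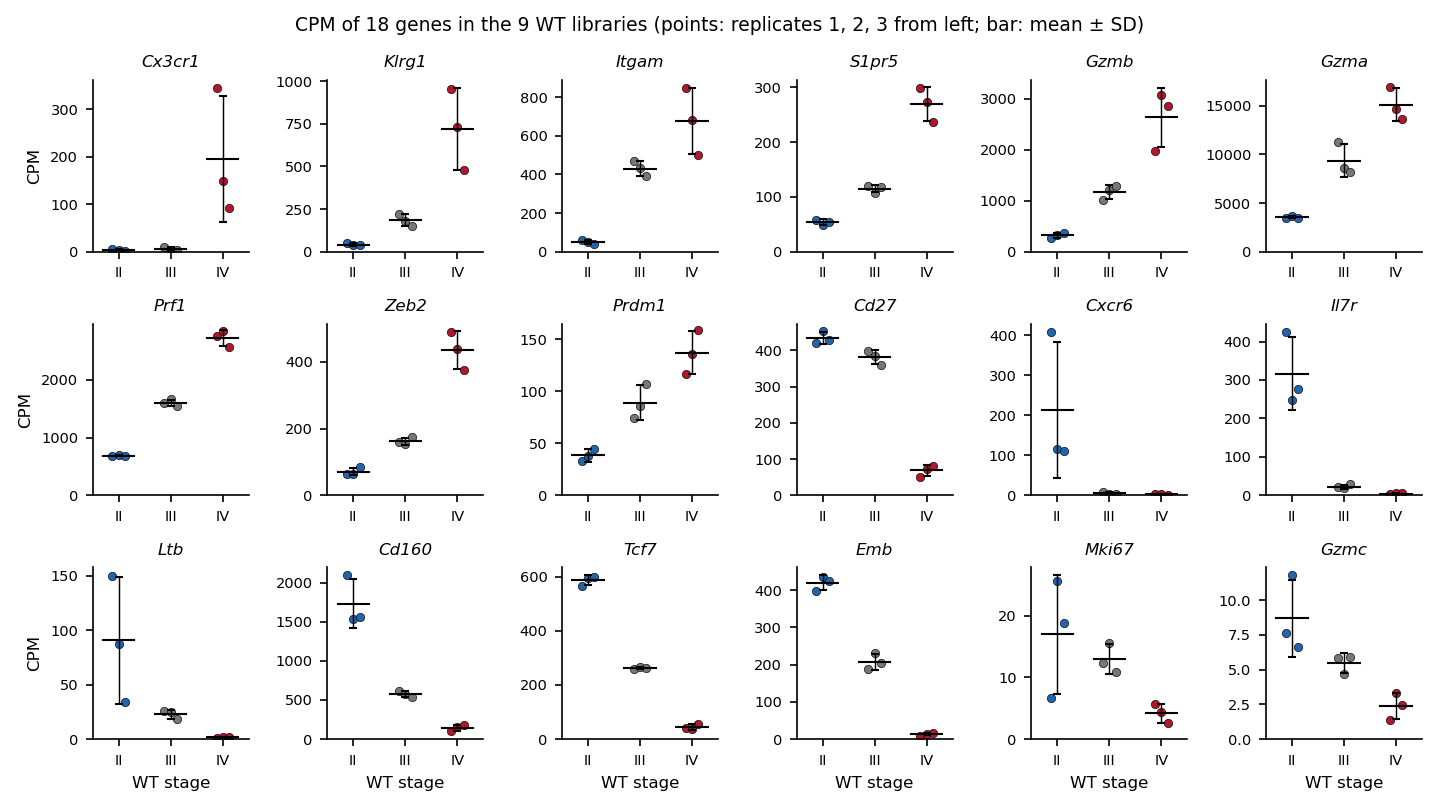
CPM (vertical axis, linear, from 0) of 18 genes in the 9 WT libraries by stage (horizontal axis), with one point per library in the order of replicates and bars for the mean ± SD of 3 libraries. Genes such as Gzma, Prf1, S1pr5 and Zeb2 climb through stage III, Cx3cr1 is high in stage IV alone of the 3 stages, and most of the drop of Il7r and Cxcr6 in CPM lies between stages II and III.

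Receptors that place NK cells in tissue changed in both directions. Of 17 chemokine and sphingosine-1-phosphate receptor genes tested, 4 were higher in stage IV and 6 lower. Cx3cr1, the fractalkine receptor (ENSMUSG00000052336, chr9:119901616-120068283), showed the largest rise among genes whose stages did not overlap and which reached 10 CPM. It was at 6.34, 2.62 and 1.88 CPM in stage II, 10.3, 3.14 and 3.41 in stage III and 344, 149.5 and 91 in stage IV. Replicate 1 was highest at each stage, and the log2 fold change was 5.85 ± 0.69 (adjusted p = 1.54e-05). S1pr5, the sphingosine-1-phosphate receptor by which NK cells leave lymphoid organs, stood at 58.3, 47.9 and 54.3 and 299, 273 and 237 CPM (log2 fold change 2.41 ± 0.14, adjusted p = 5.26e-09). Cmklr1, the chemerin receptor, went from 3.81, 3.3 and 3.4 to 30.3, 31.4 and 26.4 CPM (3.15 ± 0.28). The fourth, S1pr4, lost its call without any one of the 6 libraries (log2 fold change 0.69 ± 0.22, adjusted p = 0.0425).

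Receptors for tissue chemokines stood on the other side. Cxcr6, a homing receptor of liver-resident lymphocytes, stood at 408, 116 and 112 CPM in stage II and 2.79, 2.31 and 1.81 in stage IV (log2 fold change -6.39 ± 0.58, adjusted p = 7.7e-07). Stage II replicate 1 held more than the other 2 stage II libraries, but all 3 lay far above stage IV. Cxcr3, which follows interferon-induced chemokines, was at 721, 536 and 495 CPM and then at 47.4, 61.9 and 70.4 (-3.19 ± 0.29). Ccr7, the receptor that guides cells into lymph nodes, was at 4.38, 13.2 and 22 CPM and then at 0.0847, 0.203 and 0.147 (-6.41 ± 1.33). Gpr183, Gpr15 and Ccr2 completed the list of falls, with log2 fold changes of -4.19 ± 0.34, -4.55 ± 0.45 and -1.46 ± 0.12. Ccr2, which guides cells to sites of inflammation, was highest in stage III (1521, 1377 and 1343 CPM against 987, 1032 and 964 in stage II and 321, 344 and 361 in stage IV).

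Of 15 integrin genes, 8 were higher and 2 lower. Beside Itgam (log2 fold change 3.81 ± 0.35, adjusted p = 9.43e-07) the partner chain gene Itgb2 rose from 1481, 1248 and 1148 CPM to 2281, 1918 and 1706 (0.69 ± 0.16). Itga4, Itga5 and Itgae had log2 fold changes of 0.70 ± 0.16, 0.77 ± 0.16 and 1.16 ± 0.22. Itgb3 fell from 48.3, 28.6 and 25.5 to 3.18, 4.14 and 3.23 CPM (-3.17 ± 0.37, adjusted p = 1.24e-05). With library totals as the scale 4 integrin genes were called higher, and 5 without stage II replicate 1 or 2 or stage IV replicate 1. One of the 2 falls, that of Itga1, was lost without stage IV replicate 3. Spn, the sialomucin CD43, and Mcam, an adhesion molecule, had changes of 1.49 ± 0.12 and 2.65 ± 0.29. Ly6c2, encoding the surface antigen Ly6C, stood at 50.7, 79.6 and 92.3 CPM in stage II and 364, 485 and 385 in stage IV (2.54 ± 0.32, adjusted p = 2.66e-05).

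Receptors of the NK gene complex changed in both directions. Klrg1, an inhibitory receptor for cadherins and a marker of terminal NK cells, went from 51.6, 36.5 and 37.2 CPM in stage II to 956, 731 and 476 in stage IV (log2 fold change 4.19 ± 0.28, adjusted p = 2.79e-08). Of 12 Ly49 genes, 3 were higher and 1 lower, against 5 and 2 with the replicate block. Klra9, Klra10 and Klra3 had log2 fold changes of 2.10 ± 0.20, 1.64 ± 0.24 and 1.03 ± 0.19, and Klra6 fell from 60.6, 66.5 and 66.5 CPM to 34, 30.4 and 30.7 (-0.95 ± 0.20). These genes are near-identical copies of one another, and the labels do not say how the authors' counting treated reads that fit several copies, so the split between members is uncertain. Among 8 NKG2 and related genes Klrc2 was higher (0.59 ± 0.14), and Klri1 and Klrc1 were lower (-1.25 ± 0.23 and -0.56 ± 0.15), against 3 higher and 2 lower with the block. The call of Klrc1 was lost without stage II replicate 2 or 3 or stage IV replicate 1 or 3 (adjusted p up to 0.133). Klrb1f, a receptor of the NKR-P1 family, stood at 814, 828 and 822 CPM and then at 434, 494 and 441 (-0.77 ± 0.13). The list of 12 NK identity genes had 4 members called higher and none lower, against 8 and 1 with the block. Of these 4, the call of Tbx21 held in all 6 fits with a library left out, and 1 or 2 of the list were called in each of the 6.

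The list of checkpoint and inhibitory receptors, which also holds activating members such as Cd226, leaned downward apart from Klrg1 and Lair1. Of 19 genes tested, 11 were lower and 2 higher, with a median log2 fold change of -1.12. Cd160, a GPI-anchored receptor for HVEM, stood at 2094, 1537 and 1566 CPM in stage II, 619, 578 and 536 in stage III and 104, 151 and 181 in stage IV. The stages did not overlap (log2 fold change -3.48 ± 0.22, adjusted p = 1.41e-08). Lag3, a receptor for MHC class II, was at 33.8, 28.6 and 25.7 CPM in stage II and 3.01, 3.04 and 2.3 in stage IV (-3.31 ± 0.42). Ctla4, a brake on costimulation, was at 2.73, 4.61 and 6.38 and 0.169, 0.0406 and 0 CPM (-5.83 ± 0.80). Cd200r1 and Cd200r2 had changes of -4.46 ± 0.45 and -4.79 ± 0.31, and Cd96 and Cd226, which compete for the ligand CD155, of -0.85 ± 0.11 and -1.69 ± 0.25. Btla had 111 counts over the 3 stage II libraries and 0 over those of stage IV, which makes it at least 41.1-fold lower against a floor of 3 counts over the group. Lair1, a collagen receptor, was higher (1.02 ± 0.20, adjusted p = 0.00235). Slamf6, a self-ligand receptor of the SLAM family, was at 64.5, 71.4 and 61.3 CPM in stage II and 2.75, 2.03 and 3.23 in stage IV (-4.55 ± 0.31).

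Transcription factor genes changed in both directions. Tcf7, which encodes TCF-1, stood at 565, 596 and 598 CPM in stage II, 259, 268 and 261 in stage III and 40.5, 38 and 56.7 in stage IV (log2 fold change -3.62 ± 0.20, adjusted p = 5.2e-09). The 3 stages did not overlap. Of 16 early and stem-like factors tested, 5 were lower and 1 higher, against 5 and 4 with the replicate block. Id3, an inhibitor of E proteins, went from 86.3, 62.6 and 55.1 CPM to 1.23, 1.79 and 1.76 (-5.32 ± 0.31), and Myb, a factor of progenitors, from 16.1, 24.2 and 30.4 to 0.974, 1.79 and 2.01 (-3.82 ± 0.51). Bcl11b and Tox had changes of -1.75 ± 0.29 and -1.24 ± 0.24, and Runx1, the one that rose, of 0.97 ± 0.14.

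Factors of terminal maturation split evenly, with 4 of 15 called higher and 4 lower. Zeb2, a zinc finger repressor that late NK cells need, was at 65, 64.3 and 84.3 CPM in stage II and 490.4, 439 and 376 in stage IV (log2 fold change 2.68 ± 0.27, adjusted p = 2.39e-06). Prdm1, which encodes Blimp-1, was at 33, 37.5 and 45 and 117, 136 and 158 CPM (1.91 ± 0.20). Irf8 was at 231, 251 and 231 and 697, 826 and 735 (1.74 ± 0.21), and Tbx21, encoding T-bet, at 144, 115 and 89.5 and 209.8, 209.5 and 169 (0.84 ± 0.21, adjusted p = 0.00948). These 4 did not overlap between the stages. Zfp683, which encodes the Blimp-1 homologue Hobit, went the other way, from 9.07, 6.64 and 8.9 CPM to 0.169, 0.243 and 0.196 (-5.21 ± 0.39, adjusted p = 9.56e-08). Irf4, Rora and Maf were lower too (-4.63 ± 0.81, -1.78 ± 0.26 and -0.91 ± 0.20). Eomes itself lay at 191, 210.1 and 212 CPM in stage II and 253, 237 and 275 in stage IV. The 3 late libraries were above the 3 early ones, but the difference did not pass the test (0.39 ± 0.15, adjusted p = 0.083). With the replicate block it passed (adjusted p = 0.000946), and over all alternatives the adjusted p ran from there to 0.302. Among Ikaros family genes Ikzf2, encoding Helios, fell from 85.3, 63.4 and 63.4 to 13.7, 12.9 and 11.8 CPM (-2.38 ± 0.14, adjusted p = 5.2e-09). The call of a second member, Ikzf4, was lost without any one of the 6 libraries. Of 14 KLF and FOX factors 3 were higher and 2 lower, against 9 and 2 with the replicate block, and 1 was higher without stage II replicate 1 or stage IV replicate 3. Klf4 had a change of -2.67 ± 0.37 and Klf12 of 1.84 ± 0.30.

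Genes of immature NK cells and of ILC1 were lower at the late end. The immature list, too, holds genes known for one end, so its direction is not independent support. Of 18 immature NK markers, 15 were lower and none higher, with a median log2 fold change of -3.31 and sums of 7863, 8572 and 8647 CPM in stage II against 1155, 1949 and 2217 in stage IV. Il7r, the receptor chain for IL-7, was at 425, 249 and 276 CPM in stage II, 20.9, 18.6 and 28.2 in stage III and 2.96, 4.99 and 5.92 in stage IV (log2 fold change -6.0 ± 0.35, adjusted p = 5.96e-09). Emb, encoding the adhesion protein embigin, was at 398, 436 and 425 and 9.23, 14.7 and 16.2 CPM (-4.89 ± 0.27). Kit, the stem cell factor receptor, was at 338, 279 and 299 and 8.89, 17.6 and 26.7 CPM (-4.01 ± 0.39). All 3 genes were separate between the ends in every library. Thy1, a GPI-anchored glycoprotein, fell by 2.20 on the log2 scale, after a stage III level (81.4, 73.5 and 68.5 CPM) no lower than that of stage II (69.7, 60.9 and 51.3 CPM).

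On the list of 18 ILC1 markers, 15 were lower and none higher, with a median of -4.43. They summed to 2241, 1737 and 1896 CPM in stage II and 312, 573 and 600.2 in stage IV. Tmem176a and Tmem176b, paired membrane proteins of ILC, had log2 fold changes of -5.36 ± 0.33 and -4.40 ± 0.20. Asb2 was at 205, 88.5 and 95.7 CPM in stage II and 2.71, 3.12 and 3.62 in stage IV (-5.25 ± 0.30, adjusted p = 5.2e-09). Tnfsf10, the death ligand TRAIL, was at 55.2, 32.6 and 34.9 and 4.57, 5.52 and 5.29 CPM (-2.89 ± 0.21). Inpp4b was at 32.2, 35.8 and 37.5 and 0.847, 1.54 and 1.42 CPM (-4.71 ± 0.43). Itga1, the ILC1 integrin CD49a, stood at 12.7, 6.83 and 6.61 and 4.24, 3.17 and 2.35 CPM (-1.32 ± 0.31), a call lost without stage IV replicate 3 (adjusted p = 0.0564). In bulk RNA, fewer cells of a type and less RNA per cell cannot be told apart, and the part that ILC1 in the early gate had in these falls was not tested. Of the ILC1 genes, Il7r and Kit also stand on the immature NK list.

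The falls of largest fitted size among genes that reached 10 CPM were those of Bmp7, Batf3, Nsg2, P2rx7, Gpr55, Cd63, Dll1 and Apol7b. Bmp7 encodes a bone morphogenetic protein (ENSMUSG00000008999, chr2:172868012-172940321). It had 868 counts over the 3 stage II libraries and 1 over those of stage IV, a ratio of 964 after scaling to library totals with an exact 95% interval from 173 to 3.81e+04, which covers counting error only. Batf3, a factor known from dendritic cells, was at 38.1, 36 and 40.3 CPM in stage II and 0.127, 0.0812 and 0.0979 in stage IV (log2 fold change -8.39 ± 0.87, adjusted p = 3.42e-06). P2rx7, an ATP-gated channel, was at 16.6, 12.1 and 9.73 and 0.0424, 0.162 and 0 CPM (-7.28 ± 0.90), and Dll1, a Notch ligand, at 25.8, 15.9 and 14 and 0.212, 0.203 and 0.0979 (-6.60 ± 0.64). Tcrg-C4, a constant segment of the T cell receptor gamma locus, was at 231, 156 and 150.4 CPM in stage II and 2.37, 2.84 and 2.79 in stage IV (-5.97 ± 0.28, adjusted p = 1.07e-09). These genes were near 0 at the late end in every library. The adhesion gene Dscam, the keratin gene Krt83 and Lta were also among the 15 largest falls.

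Among the 15 largest rises were several genes not described above. Entpd1 encodes CD39, an ectoenzyme that removes extracellular ATP. It was at 8.55, 2.42 and 4.04 CPM in stage II, 39.1, 30.1 and 25 in stage III and 180.1, 158 and 135 in stage IV (log2 fold change 5.09 ± 0.36, adjusted p = 4.8e-08). Kcnj8, a subunit of ATP-sensitive potassium channels, went from 19.4, 10.8 and 11.3 to 207, 205 and 174 CPM (3.92 ± 0.31). Gpx8 was at 5.15, 0.582 and 0.321 and 79.9, 50.2 and 35.6 CPM (4.92 ± 0.65), with stage II replicate 1 above the other 2 early libraries. Cdc20b was at 5.82, 3.63 and 3.95 and 94.6, 85.3 and 76 CPM (4.35 ± 0.24, adjusted p = 5.2e-09). Nfe2, a bZIP factor known from megakaryocytes, was at 2.83, 2.62 and 2.52 and 26.4, 23.7 and 24.2 (3.30 ± 0.36). Each of these was called in all 6 fits with a library left out. The remaining rises of this size were I830127L07Rik (4.48 ± 0.65), Sept5 (3.67 ± 0.32), Ube2l6 (3.34 ± 0.37) and Tmem151a (3.01 ± 0.59).

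Secreted factors changed in both directions. Of 15 chemokine and cytokine genes tested, 3 were higher and 6 lower, against 5 and 6 with the replicate block. The number higher was 1 without stage II replicate 1 or 3 or stage IV replicate 2 or 3. Genes of the tumour necrosis factor locus were lower. Lta and Ltb, the 2 lymphotoxin chains that organise lymphoid tissue, were at 24.8, 19.1 and 16.3 and 150, 87.4 and 34 CPM in stage II. In stage IV they were at 0.127, 0.162 and 0.538 and 0.974, 1.75 and 1.91 CPM, with log2 fold changes of -6.12 ± 0.52 and -5.76 ± 0.65. Tnf was at 25.4, 29.3 and 29.5 CPM and then at 0.254, 1.34 and 0.979 (-4.94 ± 0.45, adjusted p = 8.61e-07). Csf2, which encodes GM-CSF, was at 30.2, 33.7 and 23.5 and 1.57, 3.33 and 3.77 CPM (-3.25 ± 0.30). Xcl1, the chemokine that attracts cross-presenting dendritic cells, was at 976, 1430 and 1506 CPM in stage II and 63.5, 343 and 364 in stage IV (-2.26 ± 0.55, adjusted p = 0.00933). Replicate 1 was the lowest library of Xcl1 at each end, as it was for Ccl3, which was higher in stage IV (729.7, 1383 and 1384 against 1717, 3562 and 3114 CPM, 1.33 ± 0.37, adjusted p = 0.0208). The call of Ccl3 was lost without stage II replicate 1, stage IV replicate 2 or stage IV replicate 3 (adjusted p up to 0.117). Replicate 1 also had the lowest immediate early sums, and the part of those sums in these 2 results was not tested. Of 19 genes of the tumour necrosis factor superfamily, 10 were lower and none higher, against 12 and 3 with the block. Tnfsf8 and Tnfrsf25 were at 76.5, 38.5 and 39.6 and 56.4, 31.8 and 28.5 CPM in stage II, against 2.96, 1.7 and 2.06 and 0.635, 0.893 and 1.47 in stage IV (-4.42 ± 0.38 and -5.19 ± 0.58).

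Cytokine receptors changed in both directions. Of 18 receptor genes for cytokines other than IL-2 and IL-15, 4 were higher and 7 lower, against 7 and 7 with the replicate block. The receptor chains for the activating cytokines IL-12 and IL-18 were among the 4. Il12rb2 was at 151, 168 and 163 CPM in stage II and 306, 358 and 296 in stage IV (log2 fold change 1.07 ± 0.15), Il18rap at 463, 452 and 504 and 1212, 976 and 873 (1.18 ± 0.14), and Il18r1 and Ifngr1 had changes of 0.72 ± 0.17 and 0.80 ± 0.11. The partner chain gene Il12rb1 fell (-0.90 ± 0.21), as did Il21r (-1.63 ± 0.27), Il6st (-1.95 ± 0.30) and Ifnar2 (-0.61 ± 0.11). Of 18 genes of IL-2 and IL-15 signalling, 5 were lower and none higher, against 11 lower and 5 higher with the replicate block. Il2ra, the high-affinity chain for IL-2, was at 46, 26.8 and 20.4 CPM in stage II and 0.296, 0.812 and 0.734 in stage IV (-5.54 ± 0.41, adjusted p = 8.95e-08). Socs2, Pim2 and Cish, which these cytokines induce, had changes of -2.61 ± 0.25, -1.49 ± 0.28 and -0.83 ± 0.18.

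Transcripts of dividing cells were lower at the late end. Of 30 genes of mitosis and G2/M, 19 were lower and none higher, with a median log2 fold change of -1.79. Their CPM summed to 166, 441 and 299 in stage II and 120.5, 122 and 104 in stage IV. Stage II replicate 1 had the lowest early sum and came nearest to stage IV. The number of calls was 19 without stage II replicate 1 and 5, 10, 6, 10 and 6 without stage II replicates 2 and 3 and stage IV replicates 1, 2 and 3. Ccnb2, a cyclin of mitotic entry, was at 2.37, 21 and 16.3 CPM in stage II and 0.508, 1.62 and 0.881 in stage IV (log2 fold change -3.66 ± 0.80, adjusted p = 0.00463). Birc5, which encodes survivin, and Nusap1, a spindle protein, had changes of -3.18 ± 0.70 and -2.59 ± 0.56. Mki67, the proliferation marker Ki-67, was at 6.59, 25.5 and 18.8 and 5.63, 4.38 and 2.59 CPM (-1.97 ± 0.63, adjusted p = 0.0429), and of the 6 fits with a library left out it was called in that without stage II replicate 1. Of 32 genes of DNA replication and G1/S, 8 were lower and none higher, against 22 lower and 1 higher with the block. The number lower was 12 without stage II replicate 1, 6 without stage II replicate 3 and 5 without stage II replicate 2 or any one of the stage IV libraries. The replication factors Mcm10 and Cdc6 were at 3.04, 6.64 and 4.18 and 4.84, 14.3 and 11.6 CPM in stage II, against 0.212, 0.122 and 0.245 and 0.339, 1.34 and 0.93 in stage IV (-4.50 ± 0.72 and -3.48 ± 0.62). Among 14 D cyclin and inhibitor genes, 3 were higher and 3 lower, against 8 and 3 with the block. The number lower was 2 without stage II replicate 1, 1 without stage IV replicate 1 and 0 without any one of the other libraries. Ccnd3 and the inhibitor Cdkn2d were higher (0.69 ± 0.11 and 0.77 ± 0.13).

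Promoters of the mitotic genes share short sequence elements, and 3 are shown since their genes fell and carry both. The stretches are the 150 bases before the RefSeq start on GRCm38.p6, 5′ to 3′ on the gene's strand. Capitals mark TTTGAA, the cell cycle genes homology region (CHR), and CCAAT, on either strand; the 2 do not overlap here.
Ube2c, chr2:164769779-164769928, plus strand: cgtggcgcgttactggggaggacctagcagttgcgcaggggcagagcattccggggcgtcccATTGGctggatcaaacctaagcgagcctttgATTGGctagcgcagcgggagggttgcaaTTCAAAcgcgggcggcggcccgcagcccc
Kif11, chr19:37376232-37376381, plus strand: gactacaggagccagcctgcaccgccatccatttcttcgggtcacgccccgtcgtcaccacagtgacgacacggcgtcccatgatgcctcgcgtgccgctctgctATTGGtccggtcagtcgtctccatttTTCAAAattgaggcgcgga
Top2a, chr11:99024190-99024339, minus strand: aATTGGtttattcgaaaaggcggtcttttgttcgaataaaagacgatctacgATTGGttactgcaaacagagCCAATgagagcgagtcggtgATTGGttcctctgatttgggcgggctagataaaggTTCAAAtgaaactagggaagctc
Ube2c encodes a ubiquitin-conjugating enzyme of mitotic exit, Kif11 the spindle motor Eg5 and Top2a DNA topoisomerase II alpha. Ube2c was at 1.34, 6.83 and 3.99 CPM in stage II and 0, 0.568 and 0.392 in stage IV (log2 fold change -3.58 ± 0.87), a call lost without stage II replicate 2 (adjusted p = 0.0581). Kif11 was at 3.45, 10.4 and 4.96 and 2.03, 1.62 and 1.08 CPM (-1.93 ± 0.61), and Top2a at 29.2, 84.6 and 53.7 and 22.4, 19.7 and 17.7 (-1.43 ± 0.42). The last 2 were called in 1 of the 6 fits with a library left out, that without stage II replicate 1. A RefSeq window of 300 bases, 250 before and 50 after the start, was found for 10194 of the tested genes. TTTGAA lay in 12.3% of these windows on either strand, in 11.7% of those of genes that rose and in 14.6% of those of genes that fell. It lay in 18 of the 24 windows of mitosis and G2/M genes, called or not, and in 3 of 26 of the G1/S genes. CCAAT lay in 39% of all windows and in 22 of those 24. A match of letters is a description and not a bound site.

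Genes of protein synthesis fell by small amounts in large numbers. Of 79 ribosomal protein genes, 55 were lower and none higher, with a median log2 fold change of -0.74. Summed CPM was 27090, 29690 and 29990 in stage II and 16500, 15230 and 14190 in stage IV, and the sums did not overlap. Rpl4 was at 3043, 3552 and 3566 CPM in stage II, 2773, 2746 and 2749 in stage III and 1785, 1672 and 1638 in stage IV (log2 fold change -0.92 ± 0.13, adjusted p = 7.27e-05). Rps3 was at 2992, 3203 and 3132 and 1779, 1640 and 1440 CPM (-0.87 ± 0.17). Rplp0 had a change of -1.08 ± 0.16, and the elongation factor gene Eef1a1 was at 3340, 4099 and 4274 and 2134, 2105 and 1893 CPM (-0.86 ± 0.13). The number of ribosomal protein genes called was 55 without stage II replicate 1, 33 without stage II replicate 2, 32 without stage II replicate 3 and 41, 39 and 32 without stage IV replicates 1, 2 and 3. Ribosomal protein genes have many processed copies in the genome, and the labels do not say how reads that fit several copies were counted. Among 25 genes of ribosome biogenesis, 8 were lower and none higher, against 22 lower with the replicate block. Without stage II replicate 1 the number was 10, and without any one of the other libraries 1 to 3. Npm1, the nucleolar protein nucleophosmin, was at 283, 394 and 376 and 192, 184 and 195 CPM (-0.82 ± 0.15, adjusted p = 0.00127). Of 14 genes of nutrient uptake and Myc, 6 were lower and none higher, and 3 were lower without stage IV replicate 3. They included the metal transporter Slc11a2 (101, 103 and 96.9 against 30.4, 29.8 and 32.1 CPM, -1.63 ± 0.11) and the amino acid transporter Slc38a1 (-0.82 ± 0.13).

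In the main fit the called genes of glycolysis and of the counted part of the mitochondrial genome were lower at the late end. Oxidative phosphorylation had 1 call there and more with the replicate block. Over all tested genes 5.26% were called higher and 9.82% lower, and 23.0% and 23.5% with the replicate block. Of 19 glycolysis genes, 5 were lower and none higher, against 12 lower and 4 higher with the replicate block, and 3 were lower without stage II replicate 2 or stage IV replicate 3. Gpi1, the second enzyme of the pathway, was at 268, 278 and 255 CPM in stage II and 157, 142 and 132 in stage IV (log2 fold change -0.82 ± 0.11), and Hk2, a hexokinase, at 7.06, 5.19 and 5.69 and 1.91, 1.46 and 1.96 (-1.67 ± 0.39). Ldhb, a lactate dehydrogenase chain, had 195 counts over the early libraries and 3 over the late ones, a ratio of 72.2 after the same scaling with an exact 95% interval from 24.3 to 353. Of 27 nuclear genes of oxidative phosphorylation, 1 was lower and none higher, against 13 lower with the block. The 1 call held in no fit with a library left out but that without stage II replicate 1. Without regard to any test, 17 of the 27 had every stage IV library below every stage II library, against 27.1% of all tested genes. Their CPM summed to 7004, 7047 and 6796 in stage II and 5953, 5896 and 5801 in stage IV. Of 8 mitochondrially encoded genes tested, 5 were lower. The count among these 8 was 6 without stage II replicate 1 and 0 to 3 without any one of the other libraries. The genes mt-Nd4l, mt-Co2, mt-Co3, mt-Atp6 and mt-Atp8 had no count in any stage II or stage IV library. The result therefore covers only part of the mitochondrial genome. Of 26 genes of sterol and fatty acid synthesis, 1 was higher and 2 lower, against 4 and 6 with the block. The number lower was 1 without stage II replicate 2 or 3 or stage IV replicate 1 or 3, and none was higher without stage IV replicate 1. Of 31 actin and motility genes, 4 were higher and 1 lower, against 19 and 5 with the block. The actin-severing protein gene Gsn was the one that fell, from 20.9, 21.5 and 18.7 to 3.01, 2.35 and 2.89 CPM (-2.81 ± 0.32), and Dock2, which drives lymphocyte migration, had a change of 0.68 ± 0.17. S100a6, a calcium-binding protein, was at 136, 117 and 116 and 336, 321 and 263 CPM (1.41 ± 0.20).

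Interferon-stimulated genes were lower at the late end. Of 30 on the list, 16 were lower and 1, Mx1, higher (21 and 2 with the replicate block), with a median log2 fold change of -1.19. Their sums were 1875, 1474 and 1467 CPM in stage II and 1171, 1127 and 1108 in stage IV. Between 11 and 14 were called lower when a library was left out. Oas3, a sensor of double-stranded RNA, was at 25.1, 17.9 and 19.8 CPM in stage II, 15.8, 14.8 and 12.6 in stage III and 1.65, 1.7 and 2.1 in stage IV (log2 fold change -3.43 ± 0.33, adjusted p = 1.28e-06). Usp18, which dampens interferon receptor signalling, was at 85.8, 81.3 and 82.4 and 27.9, 30.4 and 34.1 CPM (-1.35 ± 0.15). Rsad2 and Isg15 had changes of -2.12 ± 0.29 and -1.42 ± 0.34. The call of Mx1 was lost without stage II replicate 2, stage II replicate 3 or stage IV replicate 1 (0.99 ± 0.29, adjusted p up to 0.136). Of 19 genes of MHC class I and peptide loading, 5 were lower and none higher, against 12 lower and 1 higher with the block. The call count was 2 to 4 when a library was left out, and 2 without stage II replicate 2 or 3 or stage IV replicate 2 or 3. H2-T22 and Tapbpl were called in all 6 such fits, with changes of -0.58 ± 0.11 and -1.05 ± 0.25.

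Promoters of 2 of the interferon-stimulated genes that fell are shown because they carry GAAACTGA, a short form of the interferon-stimulated response element. They are again the 150 bases before the RefSeq start on GRCm38.p6, with capitals for the motif on either strand; in Ifit1 2 of its copies overlap each other.
Ifit1, chr19:34640739-34640888, plus strand: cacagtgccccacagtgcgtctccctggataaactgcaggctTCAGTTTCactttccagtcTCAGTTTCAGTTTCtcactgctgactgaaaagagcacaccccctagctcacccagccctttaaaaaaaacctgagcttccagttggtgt
Ifit3, chr19:34583379-34583528, plus strand: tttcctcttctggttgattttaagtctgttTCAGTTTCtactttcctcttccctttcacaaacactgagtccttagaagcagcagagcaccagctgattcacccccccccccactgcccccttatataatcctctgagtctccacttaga
Both genes encode RNA-binding proteins of the antiviral response. Ifit1 was at 37.2, 17.6 and 20.8 CPM in stage II and 5.84, 5.48 and 6.22 in stage IV (log2 fold change -2.0 ± 0.22, adjusted p = 7.33e-06), and Ifit3 at 23.9, 12.9 and 17.4 and 5.04, 3.37 and 4.46 (-1.98 ± 0.23, adjusted p = 1.12e-05). In each gene every late library lay below every early one. GAAACTGA lay in 1.82% of the 10194 windows and in 5 of 23 windows of the interferon list, called or not.

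**Figure D3:**
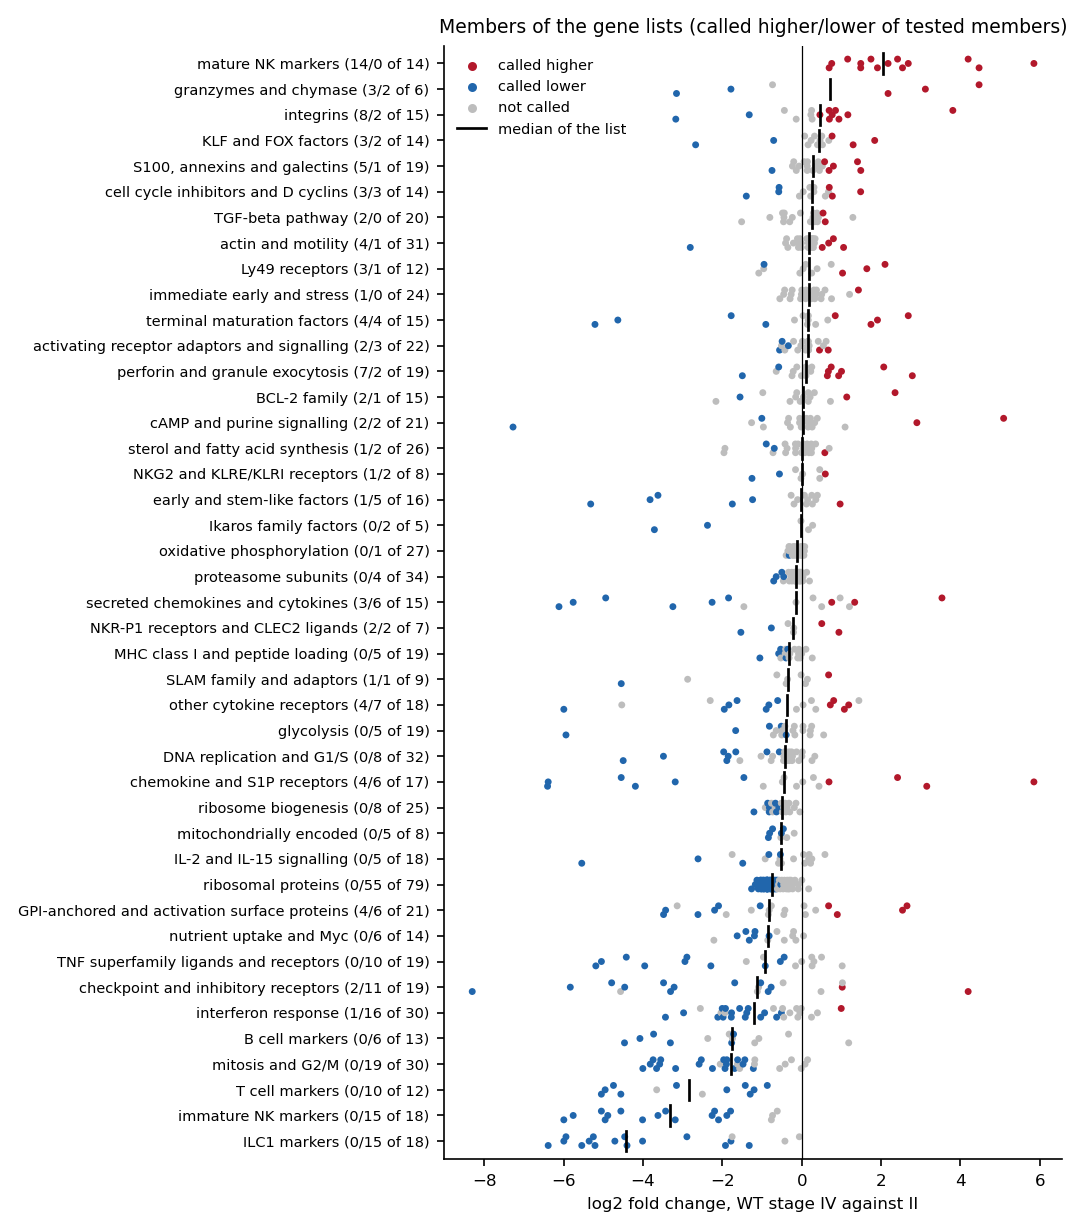
Log2 fold change of stage IV over stage II in WT cells (horizontal axis) for each tested member of the gene lists (rows, ordered by their median, which is drawn as a bar), in colour where called. The sort, NK identity, sex-linked, heat shock, myeloid, dendritic, erythroid, mast cell and other innate lymphoid lists are not drawn. The 14 mature NK markers lie to the right of 0, and of the lists drawn the medians of the ILC1, immature NK and T cell lists lie farthest to the left.

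Some surface proteins and markers of other lymphocytes fell as well. By CPM the largest loss was that of Cd7, an immunoglobulin-type receptor of T and NK cells, at 4155, 3298 and 3128 CPM in stage II and 473, 574 and 574 in stage IV (log2 fold change -2.62 ± 0.19, adjusted p = 6.24e-08). Ly6e, a GPI-anchored protein, was at 2675, 2390 and 2126 and 526, 518 and 540.5 CPM (-2.10 ± 0.22). Shisa5 and the carbonic anhydrase gene Car2 had changes of -0.68 ± 0.10 and -1.55 ± 0.14, Car2 being the one member of 10 tested erythroid and platelet markers called lower, while the block called 1 lower and 1 higher. Of 12 T cell markers tested, 10 were lower and none higher, with sums of 1472, 1754 and 1846 CPM in stage II and 429, 575 and 639.8 in stage IV. Cd3d and Cd3g, signalling chains of the T cell receptor which immature NK cells also transcribe, were at 142, 139 and 120 and 114, 132 and 109 CPM in stage II. In stage IV they were at 4.66, 3.33 and 4.26 and 3.64, 3.04 and 3.48 CPM (-4.95 ± 0.27 and -5.05 ± 0.32). Cd3e was at 9.48, 47 and 33.5 and 1.61, 1.38 and 0.685 CPM (-4.56 ± 0.87). Of the same list, Cd5 had 60 counts over the 3 stage II libraries and 2 over those of stage IV. Cd4, Cd8a and Foxp3 had 0 to 13 counts in each of the 6 libraries, too few to test. The part of T cells in these falls was not tested.

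Of 13 B cell and antigen presentation markers tested, 6 were lower and none higher (6 and 1 with the replicate block), with sums of 1711, 1665 and 1471 CPM in stage II and 241, 329.8 and 367 in stage IV. Ighm, the mu heavy chain, was at 1018, 961 and 943 CPM in stage II and 224, 269 and 316 in stage IV (log2 fold change -1.77 ± 0.20). Cd74, the MHC class II invariant chain, was at 536, 558 and 401 and 7.03, 30.6 and 25.4 CPM (-4.47 ± 0.62), and the class II genes H2-Aa, H2-Ab1 and H2-Eb1 had changes of -4.08 ± 0.63, -3.73 ± 0.75 and -3.31 ± 0.57. The B cell gene Pax5 had 4 counts in stage II replicate 1 and 0 in the other 5 libraries, too few to test. Of 11 myeloid markers tested, 3 were lower, with sums of 489, 496 and 506 against 346, 297 and 273 CPM, and of 9 dendritic cell markers 3 were lower, with sums of 190.1, 160.5 and 155 against 81.9, 94 and 83.5. Without stage IV replicate 3 the numbers were 1 and 1, and without stage IV replicate 2 the myeloid number was 1. Apart from Klrg1, Cma1 and Kit, described above, the mast cell list and that of other innate lymphoid cells held falls of Arg1 (-3.08 ± 0.71) and Il1r1. Il1r1 had 78 early counts and 1 late one. The part of other cells in these results was not tested.

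Stage III lay between the 2 ends for most called genes. The fitted stage III mean was between those of stages II and IV for 1992 of 2135 called genes (93.3%), against 60.8% of all tested genes. It was so for 708 of the 745 genes that rose and for 1284 of the 1390 that fell. On a log2 scale from 0 at stage II to 1 at stage IV, the median place of stage III was 0.51 for genes that rose and 0.43 for genes that fell. From means of log2 CPM in place of fitted means these medians were 0.46 and 0.50, so the order of rises and falls turned around. Single genes spread widely around them. Itgam had covered most of its rise in stage III (469, 432 and 389.7 CPM), while Cx3cr1 had covered little of it. Il7r and Batf3, with stage III means of 22.6 and 0.452 CPM, stood at places 0.62 and 0.76 on this log2 scale. In CPM most of their fall lay before stage III. Their means were 316.5 and 38.1 CPM in stage II and 4.63 and 0.102 in stage IV. Batf3 had only 2 or 3 counts in each stage IV library, so its place rests on few counts. Cd27 RNA and Ctla2a, a protease inhibitor, were still near their early level there, at 398, 386 and 359 and 523, 483 and 499.8 CPM. Ctla2a then fell to 119.7, 143 and 161 CPM (log2 fold change -1.79 ± 0.18). Of the called genes 69 had a stage III mean past that of stage IV and 74 had one beyond stage II, Thy1 and Ccr2 among the latter. These shares are a description and were not tested.

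**Figure D4:**
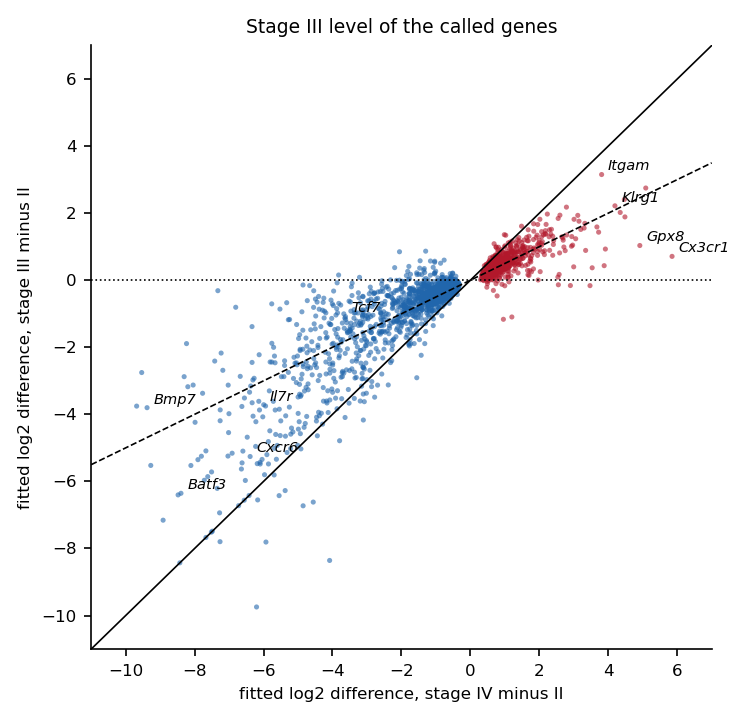
Fitted log2 difference of WT stage III from stage II (vertical axis) against that of stage IV from stage II (horizontal axis), with one point per called gene, red where higher and blue where lower in stage IV. A gene on the dotted line is at its stage II level in stage III, one on the solid line is at its stage IV level, and the dashed line lies midway. Most points lie between the dotted and solid lines, as 1992 of the 2135 called genes do.

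The same comparison was made in KO cells, and the difference of the 2 changes was tested. Eomes, the targeted gene, was at 55.2, 74.3 and 59.7 CPM in KO stage II, 159.9, 155 and 136 in KO stage III and 121, 109 and 89.8 in KO stage IV, below every WT library of the same stage. The labels do not say which exons are deleted, so the counts left in KO do not measure how complete the deletion was. Of the 2135 genes called in WT, 2083 had a change of the same sign in KO, and 1407 were also called there. The size of the change differed between the genotypes for 30 genes (0.212% of those tested), of which 29 were called in WT. At an unadjusted p under 0.05 there were 983. The change was more positive in KO for 23 genes and more negative for 7. The count was 113 in a fit of the 12 libraries of stages II and IV, 134 with DESeq2, 59 with a replicate block within genotype, 10 with limma voom and 2 to 26 with one of these 12 libraries left out, so most single genes are uncertain.

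S1pr5 had the smallest p. It was at 21, 20.8 and 17.4 CPM in KO stage II and 374, 297 and 329.6 in KO stage IV, a log2 fold change of 4.14 ± 0.15 against 2.41 ± 0.14 in WT (difference 1.72 ± 0.19, adjusted p = 0.00117). The KO libraries lay below those of WT at the early end, and KO stage IV lay between 297.2 and 373.9 CPM against 236.6 to 299.1 in WT. Thy1, at 69.1, 43.8 and 48.3 CPM in KO stage II and 2.84, 2.7 and 3.48 in KO stage IV, fell farther in KO (difference -1.90 ± 0.26, adjusted p = 0.00565). The differences of both genes were called in all 12 fits with a library left out. Ccr2 was at 495, 468 and 474 and 421, 361 and 364 CPM in KO, with little change (difference 1.19 ± 0.16, adjusted p = 0.00565, called in 11 of 12). Zfp683 was higher in KO at each stage, at 38.5, 26.6 and 28.7 and 10.4, 8.79 and 5.73 CPM (difference 3.37 ± 0.49, adjusted p = 0.00796, called in 10 of 12). Gzma, at 789.8, 958 and 957 CPM in KO stage II, started lower than in WT and reached 19220, 14430 and 15240 in KO stage IV (difference 2.06 ± 0.34, adjusted p = 0.0193, called in 4 of 12). Clip3 was at 1.5, 1.59 and 0.501 and 2.52, 3.14 and 2.66 CPM in KO, with no lower level in stage IV (difference 4.79 ± 0.72, adjusted p = 0.0109, called in 9 of 12). As3mt and Crybg2 differed in 9 of 12 such fits (1.67 ± 0.23 and 2.97 ± 0.46), Cdc20b and Ncald in 6 (2.01 ± 0.33 and 1.19 ± 0.19) and Apol7e in 5 (-1.21 ± 0.20).

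**Figure D5:**
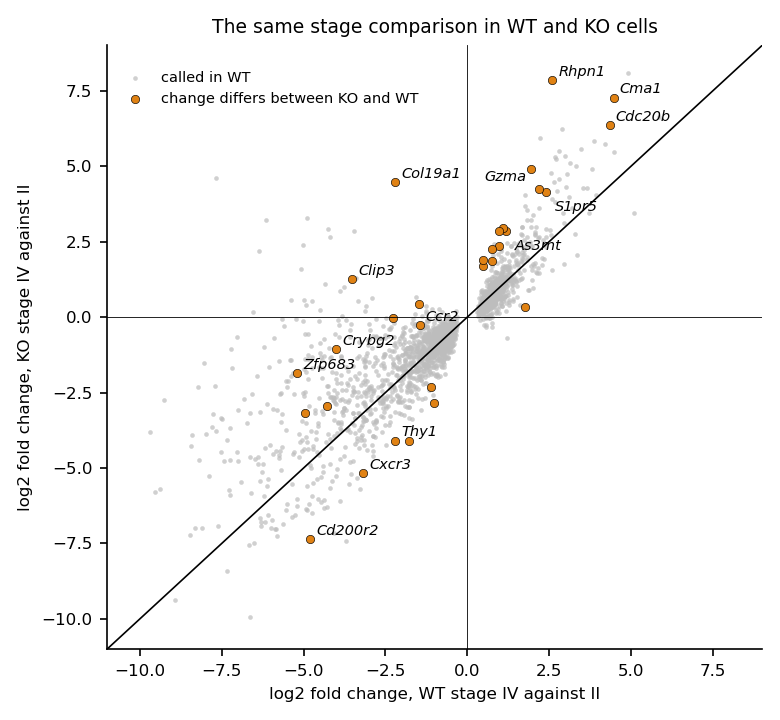
Log2 fold change of stage IV over stage II in KO cells (vertical axis) against the same change in WT cells (horizontal axis), with one grey point per gene called in WT and a line of equality. The 30 genes whose change differs between genotypes are in orange, with 23 above the line and 7 below it.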

How the data were processed

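RNA of sorted splenic NK cells was measured by sequencing, and 6 of 18 libraries enter the comparison of WT stage IV with WT stage II. The authors' tools were STAR 2.0.4, Subread and featureCounts 1.4.5, per the submitters' processing notes. Genome build, strand setting and read type are not stated in the labels. Each deposited file lists for every gene a column of raw counts, one of CPM (the count scaled to the library total) and one of RPKM, per the file headers. Recomputing the authors' CPM from the counts and their RPKM from CPM and the listed length gave the deposited values. The deposited counts were tested here, and levels are printed as the authors' deposited CPM. Of 41388 genes listed, 40340 were in GENCODE M21 on GRCm38, from which symbols were taken, and 40244 overlapped their position there.

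The test was edgeR's quasi-likelihood F test (edgeR 4.0.16, R 4.3.3). Its filter by group removed rare genes, TMM factors scaled the libraries, and all 18 libraries entered 1 model with 6 group means. Benjamini-Hochberg adjustment ran over all 14156 genes tested, with calls at an adjusted p under 0.05. A prior count of 0.125 was used. The SE is the absolute log2 fold change over the square root of F, an approximation. The procedure was tested on simulated data. Totals of the 6 libraries ran from 19409764 to 24641981. The labels name no molecular identifiers, so counting intervals cover counting error only. Deviations of same-numbered WT libraries of stages II and IV correlated over genes at 0.25, 0.13 and 0.21, so the replicate block was fitted as an alternative. In KO cells these correlations were 0.127, 0.049 and -0.036. The main model holds no replicate term, so its p-values do not use the pairing.

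Genes were named by fixed rules: the 15 largest rises and falls among called genes with no overlap of the stages and at least 10 CPM, the 10 largest gains and losses in CPM, up to 6 called members of each of 52 gene lists (902 of 910 genes matched) by size, Cd27 and Itgam, and the 10 smallest p of the difference between genotypes. Not every gene that these rules allow is named. Eomes, the check genes Ncr1 and Xist, Rplp0, Mki67, Kif11, Top2a and the untested markers were named beside them. The comparison, the rules and the lists were chosen with earlier results of these data known. Promoter windows came from RefSeq on GRCm38.p6, matched by symbol, the first window listed being used. Alternatives with limma 3.58.1, DESeq2 1.42.0, other scalings, filters and libraries are given in the closing section.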

Additional observations from a re-analysis of the deposited data

Results flagged for a closer look

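The genes below were picked out because the interaction term of edgeR's quasi-likelihood test found a different change of stage IV over stage II in KO than in WT cells. Each value is the KO change minus the WT change on the log2 scale, with its Benjamini-Hochberg adjusted p. Among receptors, the difference was 1.72 for S1pr5 (adjusted p = 0.00117), 1.19 for Ccr2 (0.00565), -1.97 for Cxcr3 (0.0439), -2.56 for Cd200r2 (0.0216) and -1.84 for the prostaglandin receptor gene Ptger2 (0.025). Of the granule genes, Gzma had a difference of 2.06 (0.0193) and Cma1 one of 2.81 (0.0439), and both had lower KO than WT levels in stage II. Cma1 was at 2.72, 7.28 and 3.15 CPM in KO stage II and 664, 606 and 694 in KO stage IV, below every WT library of the same stage (36.7 to 46.6 and 724 to 1061 CPM), so its larger fold in KO went with a smaller mean gain in CPM. Genes that fell in WT with a more positive change in KO were Zfp683 (3.37, 0.00796), Crybg2 (2.97, 0.0131), Clip3 (4.79, 0.0109) and Cd3d (1.76, 0.0439). Thy1 (-1.90, 0.00565) and Apol7e (-1.21, 0.0186) had a more negative change in KO. As3mt (1.67, 0.00642), Cdc20b (2.01, 0.0186) and Ncald (1.19, 0.0131) had a more positive one. With 1 of the 12 libraries left out, Cxcr3 was called in 3 fits, Cd200r2, Ptger2 and Gzma in 4, and Cma1 and Cd3d in 1.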

How the results depend on the processing

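The comparison of WT stage IV against II gave 2135 calls (745 higher, 1390 lower). Fits that left out whole groups gave more. There were 3572 (1377 and 2195) with the 12 libraries of stages II and IV, 3950 (1569 and 2381) without the KO stage III libraries, 4329 (1965 and 2364) with the 9 WT libraries, 4229 (1844 and 2385) with these without stage II replicate 1 and 3663 (1505 and 2158) with the 6 libraries alone. With a replicate block there were 5194 (2414 and 2780) in the 6 libraries, 6075 (3009 and 3066) in the 9 and 2604 (1011 and 1593) within genotype over all 18. An adjusted p under 0.01 left 1178 (394 and 784). Scaling by library totals gave 502 higher and 1570 lower. Genes without a filter beyond 1 count gave 2851 (811 and 2040). With one library left out there were 1289 to 1738 (474 to 540 higher, 797 to 1204 lower) on more tested genes. DESeq2 gave 2682, limma voom 2175, relative log expression 2160 and a filter of 1 CPM 2188. The difference of the change between KO and WT was called for 30 genes, and for 113 with 12 libraries, 153 without KO stage III, 134 with DESeq2, 10 with limma voom, 59 with a replicate block within genotype, 1671 without a filter and 2 to 26 with one library left out. The place of stage III between the ends held for 93.3% of called genes, and for 92.9% by mean log2 CPM, where the median places of rises and falls changed their order (0.46 and 0.50). The fits of 12 libraries, of 9 without stage II replicate 1 and of the block within genotype were chosen after seeing the data. The cause of the different numbers was not tested. Fold changes of genes with 3 or fewer counts at one end are limited by depth. Ncr1, not called in any of these fits, changed sign (-0.13 to 0.37 with one library left out, below 0 without stage II replicate 1 or stage IV replicate 2, and -0.13 in the 9 libraries without stage II replicate 1).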

Other observations

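Signalling and survival lists not described above held calls in both directions. Their counts are to be read against the shares over all tested genes. These were 5.26% higher and 9.82% lower, and 23.0% and 23.5% with the replicate block. Of 22 genes of activating receptor adaptors and signalling, 2 were higher and 3 lower, against 6 and 6 with the replicate block, and none was called without stage IV replicate 1. Syk, a kinase downstream of activating receptors, stood at 132, 133 and 138 CPM in stage II and 194, 163 and 164 in stage IV (log2 fold change 0.45 ± 0.11, edgeR adjusted p = 0.0118), and its partner kinase Zap70 at 312, 268 and 279 and 184, 186 and 205 (-0.49 ± 0.10, adjusted p = 0.00361). The 2 genes thus changed in opposite directions, with no overlap of the stages in either. The call of Zap70 was lost without stage IV replicate 1, and that of Syk without stage II replicate 1 or stage IV replicate 1. Of 20 genes of the TGF-beta pathway 2 were higher, against 9 higher and 6 lower with the replicate block, and none was called without stage II replicate 1 or stage IV replicate 1 or 2. Of 15 BCL-2 family genes 2 were higher and 1 lower, against 4 and 3 with the block. The 2 that rose encode the pro-apoptotic proteins Puma and Noxa. Bbc3 was at 5.77, 5.09 and 5.78 CPM and then 7.54, 13.9 and 12.9 (1.13 ± 0.29), and Pmaip1 at 6.13, 11.6 and 8.49 and 26.5, 58.3 and 42.4 (2.35 ± 0.62), and neither was called without stage II replicate 1 or stage IV replicate 2. Of 21 genes of cAMP and purine signalling, 2 were higher (Entpd1 and Adrb1) and 2 lower (P2rx7 and Ptger2), against 6 and 5 with the block. Adrb1, the beta-1 adrenergic receptor, was at 1.24, 0.0969 and 0.138 CPM in stage II and 4.15, 2.84 and 3.04 in stage IV (2.90 ± 0.71, adjusted p = 0.00963), with stage II replicate 1 nearest to stage IV.

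Of 24 immediate early and stress genes 1 was higher and none lower, against 6 higher and 4 lower with the replicate block. The one was Dusp2, a phosphatase induced on activation, at 90.6, 113 and 138 CPM in stage II and 271, 291 and 314 in stage IV (1.43 ± 0.23, adjusted p = 0.000415). Of 34 proteasome genes 4 were lower, against 13 lower and 1 higher with the block. The first number is near the share over all tested genes, 9.82% called lower (23.5% with the block). All 4 encode immunoproteasome subunits or the activator PA28 (Psme1, Psme2, Psmb9 and Psmb10), and 0 to 3 were called when a library was left out, none without stage II replicate 2 or stage IV replicate 3. Of 11 heat shock genes 1 was lower, against 6 lower and 2 higher with the block, and the number lower was 2 without stage II replicate 1 and 0 without any one of the other libraries. Of 6 sex-linked transcripts none was called, and 1 was lower with the block. Of 9 SLAM family genes, 1 was higher (Cd48, a ligand of 2B4) and 1 lower (Slamf6), against 2 and 5 with the block.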
